A study of Mus musculus with 6 samples.

Results

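Interferon-inducible GTPases were examined in peripheral T-cell lymphomas (PTCL) of Dnmt3b+/- mice. The 10 members were given by symbol and are Gbp2, Gbp2b, Gbp3, Gbp5, Gbp6, Gbp7 and Gbp9 of the guanylate-binding proteins (GBP) and Irgm1, Igtp and Iigp1 of the immunity-related GTPases (IRG). All 10 were found among the 34245 genes of the expression table, and each occurred a single time. The mice were of the FVB strain and carried a conventional germline inactivation of 1 Dnmt3b allele in all cells, with no transgene and no treatment. Gene expression was measured by RNA-seq of total RNA in 3 independent tumors, numbered 1 to 3, taken from lymph nodes. The ages of the mice are not given in the sources used here. The tumors form a single group and no control library was analysed here, so every comparison is between single tumors, carries no test, and shows only how these 3 tumors differed. Values are FPKM, the fragments on a gene per kilobase of its exons and per 1000000 reads of the library, so that levels of different genes can be set side by side.

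GBP and IRG proteins are GTPases that cells make after exposure to interferons, above all interferon gamma, and they act inside the cell against bacteria and parasites that live in vacuoles. GBP coat such vacuoles and bacteria and can open the way to inflammasome activation. Among the IRG, effector proteins attack the vacuole membrane, whereas the regulatory IRGM proteins sit on the cell's own membranes and keep the effectors inactive there. In T cells Irgm1 is known for protecting activated cells from death.

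The label of the tumors was first set against markers. All 11 T cell markers were above 1 FPKM in every tumor. Cd3e, a chain of the T cell receptor complex, had 56.4, 78.1 and 65.3 FPKM in tumors 1, 2 and 3. Cd8a had 259, 122 and 218 FPKM and Cd8b1, the partner of Cd8a in the CD8 coreceptor, had 435, 166 and 443 FPKM. Cd4, the other coreceptor, was lower, with 28.4, 4.28 and 8.22 FPKM. The T cell label therefore holds in all 3 tumors, with CD8 above CD4 transcripts in each.

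Promoter stretches of the members are shown first, since most members share a short repeat. RefSeq promoter windows (GRCm38.p6, 250 bases before to 50 after a start) were matched for 7 of the 10 members, in 8 windows because Gbp3 has 2. The others were Gbp6, Gbp9 and Iigp1. Both strands were searched for a paired repeat, GAAA and again GAAA with any 2 bases between (TTTC and TTTC on the other strand), as found in interferon-stimulated response elements, and for TTCNNNGAA, the letters of a gamma-activated site (GAS), which reads the same on both strands. The paired repeat was in at least 1 window of all 7 members, against 3.99% of all 27025 gene symbols. By window it was in 7 of their 8, against 3.44% of all 32851 windows of the same length. The members were picked as interferon-inducible genes and 5 of the 7 lie in 1 cluster on chromosome 3, so these shares are a description. The GAS letters were in 3 of the 8 windows, those of Gbp5, Gbp7 and Igtp, against 8.30% of all windows. In the stretches below, written on the strand of the gene, capitals mark the paired repeat, and in Gbp3 and Irgm1 they cover 2 overlapping matches.
Gbp2: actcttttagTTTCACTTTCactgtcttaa
Gbp2b: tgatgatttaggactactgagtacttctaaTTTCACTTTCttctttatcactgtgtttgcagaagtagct
Gbp3: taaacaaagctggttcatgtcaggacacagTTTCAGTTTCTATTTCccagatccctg
Gbp5: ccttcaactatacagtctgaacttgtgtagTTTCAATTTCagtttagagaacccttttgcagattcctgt
Gbp7: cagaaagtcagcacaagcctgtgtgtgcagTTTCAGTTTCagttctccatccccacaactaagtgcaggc
Irgm1: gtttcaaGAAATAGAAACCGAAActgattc
Igtp: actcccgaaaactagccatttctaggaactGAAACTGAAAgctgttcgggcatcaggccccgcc

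The stretch of Gbp2 lies at chr3:142620594-142620623 on the plus strand and that of Gbp2b at chr3:142594680-142594749, also on the plus strand. Those of Gbp3 (chr3:142559969-142560025), Gbp5 (chr3:142496739-142496808) and Gbp7 (chr3:142530253-142530322) are on the plus strand too. The stretch of Irgm1 is at chr11:48871428-48871457 on the minus strand and that of Igtp at chr11:58199492-58199555 on the plus strand. By the GENCODE annotation the repeats of Gbp2 and Irgm1 fall in an exon of a transcript that starts further upstream, that of Gbp5 in an intron of such a transcript, and those of the other 4 genes before the annotated gene. In Gbp2, Gbp3, Gbp7, Irgm1 and Igtp the repeat ended 50, 30, 44, 15 and 25 bases before the RefSeq start, whereas in Gbp5 and Gbp2b it ended 156 and 128 bases before it. A match of these letters is a description of the window and not a measured binding site.

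**Figure D1:**
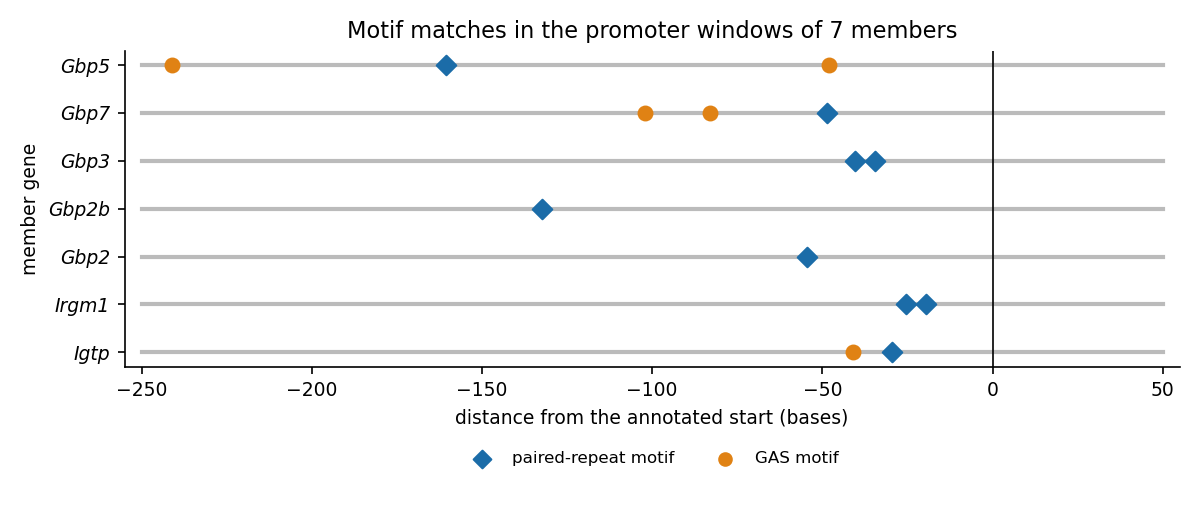
Position of each motif match (horizontal axis, bases from the annotated start at 0) in the promoter windows of 7 members (vertical axis). Diamonds mark the paired repeat and circles the GAS letters, grey bars are the 300-base windows, and 1 of the 2 windows of Gbp3, without a match, is not drawn. All 7 genes carry the repeat before the start, within 59 bases of it in 5 of them.

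The GBP on chromosome 3 were all highest in tumor 1 and lowest in tumor 3. Gbp2 (ENSMUSG00000028270, chr3:142620602-142638008 of mm10), a GBP that gathers on pathogen vacuoles, had 140, 58.7 and 29.0 FPKM in tumors 1, 2 and 3, with 75.9 ± 57.5 as the mean and SD of the 3. Reads behind these values, worked back from FPKM through the length of the exons, numbered 10827, 2802 and 1514. Tumor 1 stood 2.39-fold above tumor 2 and 4.83-fold above tumor 3. Gbp3 (ENSMUSG00000028268, chr3:142560026-142573209) followed the same order at a lower level, with 47.8, 23.6 and 12.4 FPKM (27.9 ± 18.1, SD, n = 3). Gbp7 (ENSMUSG00000040253, chr3:142530342-142550149), which is known to help bring the NADPH oxidase and autophagy proteins to bacteria, had 68.2, 40.7 and 28.8 FPKM (45.9 ± 20.2, SD, n = 3). Its highest tumor was 2.37-fold above its lowest, a narrower spread than that of Gbp2 and Gbp3, whose ratio was 3.87. Tumor 1 weighs heavily in the means, which without it were 43.8 FPKM for Gbp2 and 17.99 FPKM for Gbp3. Of the 150-base stretches of Gbp7 transcripts, the length of a read, 8.77% also occur in transcripts of Gm43802.

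Gbp5 and Gbp2b mark the ends of the range of spread within this cluster. Gbp5 (ENSMUSG00000105504, chr3:142493978-142522344), a GBP that promotes assembly of the NLRP3 inflammasome, had 15.0, 8.13 and 7.02 FPKM (10.04 ± 4.31, SD, n = 3). Its tumors 2 and 3 were close, 1.16-fold apart, and the counting intervals of their 1023 and 968 reads, 7.63 to 8.64 and 6.59 to 7.48 FPKM at 95% confidence (exact Poisson), did not meet. These intervals cover counting error only, and with median-of-ratios factors those of Gbp5 in tumors 2 and 3 would overlap. Gbp2b (ENSMUSG00000040264, chr3:142594847-142619179), the mouse gene formerly called Gbp1, had 15.4, 1.81 and 0.767 FPKM (5.99 ± 8.16, SD, n = 3). It was the member with the widest spread, 20.1-fold between tumors 1 and 3, and tumor 1 held 85.7% of its FPKM summed over the tumors. Only 97 and 45 reads stand behind its values in tumors 2 and 3, with intervals of 1.47 to 2.21 and 0.560 to 1.03 FPKM, against 1336 reads in tumor 1, and without tumor 1 its mean was 1.29 FPKM. Gbp2b was also the only member below 1 FPKM in a tumor. In the other 4 genes of the cluster tumor 1 held between 49.5 and 61.5% of the summed FPKM.

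**Figure D2:**
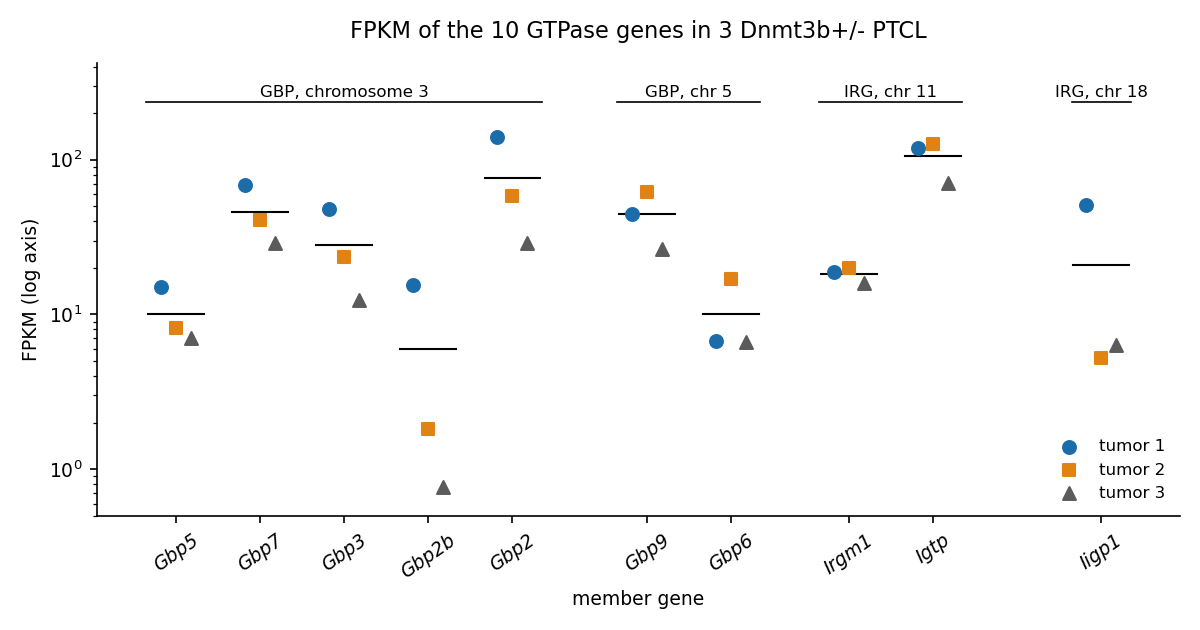
FPKM (vertical axis, log scale) of the 10 members in each of the 3 tumors, grouped by family and chromosome. Points are single tumors and horizontal lines the mean of 3. The chromosome 3 genes are highest in tumor 1 and lowest in tumor 3, Gbp9 and Gbp6 are highest in tumor 2, and Iigp1 stands at 50.9 FPKM in tumor 1 against 5.25 and 6.34 in the others. Irgm1 and Igtp are within 1.06-fold between tumors 1 and 2, and their highest tumor changes to tumor 1 when each tumor is rescaled to the same sum.

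The GBP members on chromosome 5 did not share that order. Gbp9 (ENSMUSG00000029298, chr5:105077630-105139539) had 44.6, 62.2 and 26.4 FPKM (44.4 ± 17.9, SD, n = 3), so that tumor 2 was 1.39-fold above tumor 1 and 2.35-fold above tumor 3. Its gene model overlaps those of Gbp8 and Gbp4 on the same strand, but none of the 150-base stretches of its transcripts was found in a transcript of another gene. Gbp6 (ENSMUSG00000104713, chr5:105270702-105293698) had 6.77, 16.8 and 6.67 FPKM (10.1 ± 5.84, SD, n = 3). Tumor 2 was 2.49-fold above tumor 1, while tumors 1 and 3 were 1.01-fold apart and their counting intervals overlapped, and without tumor 2 the mean was 6.72 FPKM. Its level is uncertain, because 59.1% of its 150-base stretches also occur in transcripts of other genes, mainly Gm43302, and reads that match more than 1 place would have been lost under the mapping filter of the authors. Gm43302 overlaps Gbp6 on the same strand and had 10.4, 25.5 and 10.7 FPKM. On either scaling tried, Gbp6 and Gbp9 were highest in tumor 2.

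The members Irgm1 and Igtp, both regulatory IRG, varied least of the 10. Irgm1 (ENSMUSG00000046879, chr11:48861968-48871683), which acts on the cell's own membranes and in autophagy, had 18.8, 19.9 and 16.0 FPKM (18.3 ± 2.02, SD, n = 3), 1.24-fold between highest and lowest. Igtp (ENSMUSG00000078853, chr11:58199556-58207591), also called Irgm3, an IRGM protein of the endoplasmic reticulum, had 119, 126 and 70.8 FPKM (105 ± 30.04, SD, n = 3). Its mean was the highest of the 10 members and exceeded that of 99.3% of all genes. For both genes tumor 2 exceeded tumor 1 by less than 1.06-fold, and tumor 1 became the highest once each tumor was rescaled to the same sum of FPKM. The gene model of Igtp overlaps that of Irgm2 on the same strand, although the genes share only 0.739% of the 150-base stretches of Igtp.

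The effector IRG Iigp1 (ENSMUSG00000054072, chr18:60376029-60392627), also known as Irga6, which loads onto the vacuoles of parasites, varied far more, with 50.9, 5.25 and 6.34 FPKM (20.8 ± 26.1, SD, n = 3). Tumor 1 stood 9.69-fold above tumor 2 and 8.03-fold above tumor 3, and held 81.5% of the summed FPKM, and without it the mean was 5.80 FPKM. Iigp1 was the only member whose lowest tumor was tumor 2. Its reads did not come out whole with the exon length used, so no read count or counting interval is given for it.

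Taken as a count, 6 of the 10 members were highest in tumor 1, where 50.6% of the 11190 genes with a mean of at least 1 FPKM were highest. Tumor 2 was the highest for 4 members and 33.7% of all these genes, and tumor 3 for 0 members and 15.7% of the genes. The share of members highest in tumor 1 was therefore near that of all genes in the deposited values. It was 8 of 10 against 60.5% of all genes with each tumor rescaled to the same sum. With median-of-ratios factors it was 6 of 10 against 39%, and neither gap was tested. Tumor 3 was the lowest for 9 members and for 37.4% of all genes, 1 of the 9 being Gbp6, whose tumors 1 and 3 did not differ beyond counting error and whose lowest tumor became tumor 1 with median-of-ratios factors. In all, 5 members, all on chromosome 3, were highest in tumor 1 and lowest in tumor 3, as were 20.5% of all genes. In 8 of 10 members the highest tumor was at least 2-fold above the lowest, against 34.4% of all genes, the exceptions being Irgm1 and Igtp. Leaving out a tumor or raising the threshold can only lower or keep that count. It was 4 without tumor 1, 6 without tumor 2, 5 without tumor 3 and 4 at a threshold of 3-fold. The share of all genes at these settings is not given here, so these counts cannot be set against it. The median ratio of highest to lowest tumor was 2.45 in the members and 1.68 over all genes. In the deposited values genes were on the whole higher in tumor 1, with a median ratio of tumor 1 to tumor 2 of 1.13 over all genes and 1.76 over the members, and of tumor 1 to tumor 3 of 1.18 and 2.25. These ratios depend on the scaling, since the median-of-ratios factor was larger for tumor 1 (1.08) than for tumors 2 and 3 (0.974 and 0.951).

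By mean FPKM the order of the members was Igtp, Gbp2, Gbp7, Gbp9, Gbp3, Iigp1, Irgm1, Gbp6, Gbp5 and Gbp2b. No neighbors in this order were separated in the sense that all 3 tumors of the upper gene lay above all 3 of the lower. Within each tumor, however, Irgm1 exceeded Gbp6 in 3 of 3, and Gbp2 exceeded Gbp7 in tumors 1 and 2 but not beyond counting error in tumor 3 (29.0 and 28.8 FPKM), whereas Gbp6 exceeded Gbp5 in 1 of 3 and Iigp1 exceeded Irgm1 in 1 of 3. The median of the members' means was 24.4 FPKM, against 5.70 over all genes with a mean of at least 1.

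Summed over the 10 members, tumors 1, 2 and 3 had 527, 363 and 204 FPKM, a ratio of highest to lowest of 2.58, or 1.45 without tumor 3. The 7 GBP together had 338, 212 and 111 FPKM, and the 3 IRG 189, 151 and 93.1 FPKM. The GBP share of the sum was 64.1, 58.4 and 54.4%, a mean of 59.0 ± 4.89% (SD, n = 3), a value that does not depend on how the libraries were scaled. Gbp2 was the largest single contributor in tumor 1 with 26.6%, and Igtp in tumors 2 and 3 with 34.6 and 34.7%. Gbp2, Gbp2b, Gbp3 and Iigp1 thus made up more of the family in tumor 1 than in the others, and Igtp, Irgm1, Gbp9 and Gbp6 less, while Gbp5 and Gbp7 had their largest share in tumor 3. Gbp9 held 8.46, 17.1 and 12.9% of the sum, Gbp6 1.28, 4.64 and 3.27%, and Irgm1 3.58, 5.49 and 7.84%.

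Other GTPases of the same families were then placed beside the members. Of 18 such genes, 15 were analysed here. Tumors 1, 2 and 3 were the highest for 6, 8 and 1 of the 15, against 50.6, 33.7 and 15.7% of all genes with a mean of at least 1 FPKM. Of the 13 with a mean of at least 1 FPKM, 11 were above 1 FPKM in every tumor, near the 86.8% of all genes with such a mean. Gbp11, Gm12250 and Mx2 were not analysed here. The IRG gene Ifi47 was not on the list, so these counts and the clusters below leave it out. Genes of the list and the members that lie within 500 kb of each other formed 5 clusters with 21 genes, and the highest tumor differed between clusters. In the cluster on chromosome 3, which holds 5 members and no other gene of the list, summed FPKM was 286, 133 and 77.9 in tumors 1, 2 and 3.

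On chromosome 5, 4 of 5 genes were highest in tumor 2. Gbp10, whose transcripts share 66.6% of their 150-base stretches with other genes, had 10.5, 35.6 and 13.8 FPKM, and Gbp8 had 15.4, 24.9 and 3.65 FPKM. Gbp4, whose gene model overlaps those of Gbp8 and Gbp9 on the same strand, was the exception with 54.0, 34.6 and 21.8 FPKM, highest in tumor 1. The cluster sum was 131, 174 and 72.4 FPKM.

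On chromosome 11, the cluster round Irgm1 was the most even, with sums of 73.9, 94.3 and 65.3 FPKM. Tgtp1, an effector IRG, had 20.9, 18.2 and 14.7 FPKM and its near-identical copy Tgtp2 had 17.0, 19.1 and 14.3 FPKM. The tandem IRG genes 9930111J21Rik1 and 9930111J21Rik2 had 8.63, 23.8 and 12.4 FPKM and 8.20, 11.2 and 7.68 FPKM, both highest in tumor 2. These 4 genes share between 44.3 and 68.4% of their stretches with other genes, so the split of reads between the copies is uncertain. Irgm2, the third IRGM gene, which lies beside Igtp, had 26.5, 41.2 and 19.5 FPKM. Its ratio of highest to lowest tumor, 2.12, exceeded those of the effectors Tgtp1 and Tgtp2, 1.43 and 1.34, so the narrow spread of Irgm1 and the wide spread of Iigp1 were not shared by all regulatory and effector genes. Gm5431, the remaining gene of these clusters, stayed below a mean of 1 FPKM.

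On chromosome 18, all 3 genes were highest in tumor 1. Gm4951 had 17.8, 0.359 and 0.255 FPKM, from 1451, 18 and 14 reads, and F830016B08Rik had 5.32, 0.176 and 0.0730 FPKM, from 539, 11 and 5 reads. Both are IRG genes, and their contrast between tumor 1 and the others was wider than that of Iigp1. The cluster sum was 74.1, 5.79 and 6.67 FPKM, so tumor 1 stood 12.8-fold above tumor 2 and 11.1-fold above tumor 3.

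**Figure D3:**
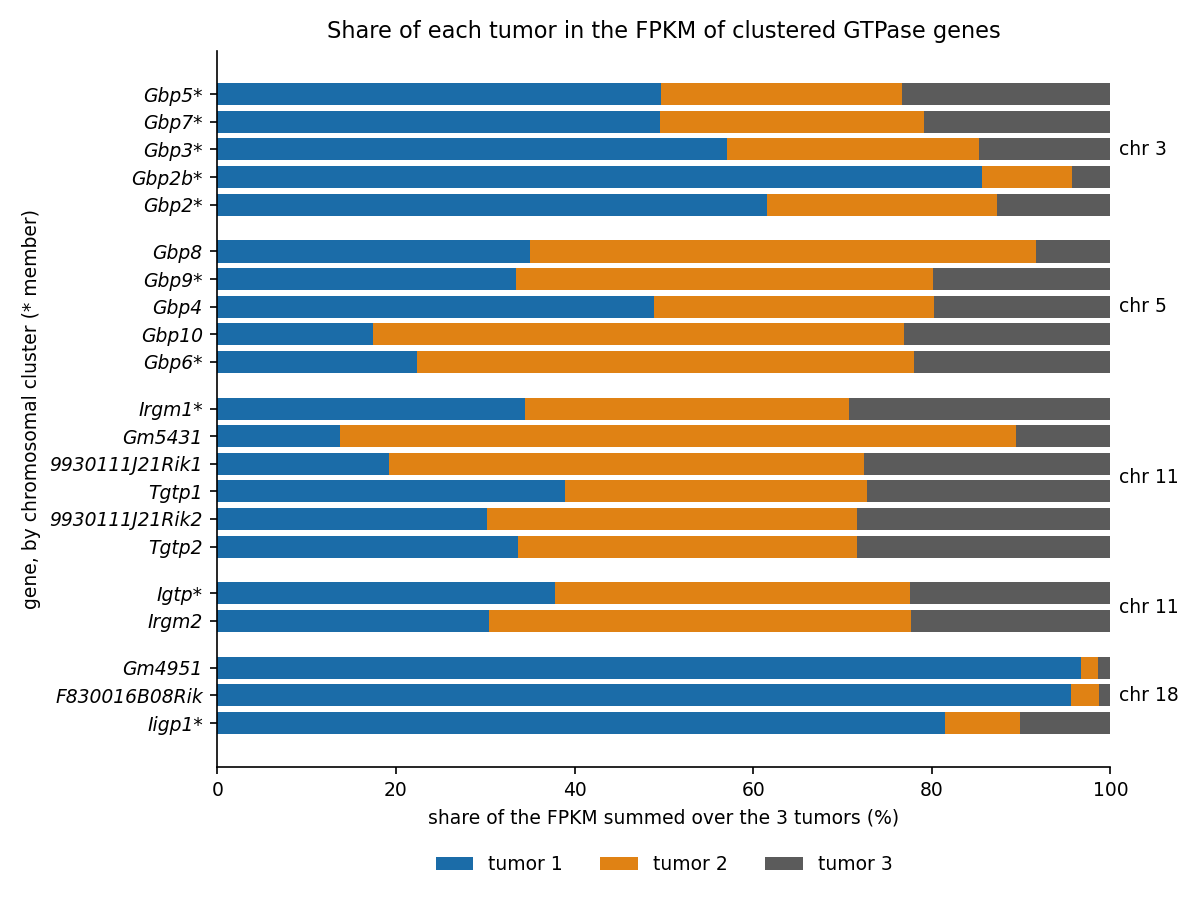
Share of each tumor (horizontal axis, % of the FPKM summed over 3 tumors) in the FPKM of 21 GTPase genes (vertical axis) in 5 chromosomal clusters, with members marked by an asterisk. Tumor 1 holds at least 49.5% in each gene on chromosome 3 and at least 81.5% in each gene on chromosome 18, while tumor 2 holds the largest share in 4 of 5 genes on chromosome 5. Among the genes on chromosome 11, Igtp, Irgm1 and Tgtp2 are nearly even between tumors 1 and 2, and Igtp and Irgm1 change their highest tumor under a rescaling.

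The genes next to these clusters, 2 on either side with a mean of at least 1 FPKM, were chosen by position after the values were seen. Of the 20 flanking genes, tumors 1, 2 and 3 were the highest for 11, 3 and 6, against 50.6, 33.7 and 15.7% of all genes. Flanking does not mean near, since Rap1gds1 lies 3419 kb from the chromosome 3 cluster. Beside that cluster 3 of 4 were highest in tumor 1, as the members there were, but all 4 were lowest in tumor 2, where the members were lowest in tumor 3. Gtf2b, a general transcription factor, had 5.40, 4.22 and 4.69 FPKM, Pkn2, a protein kinase, 4.16, 2.62 and 2.97 FPKM, Rap1gds1 9.69, 4.07 and 7.83 FPKM and Pdlim5 4.66, 3.41 and 4.70 FPKM. The ratio of tumor 1 to tumor 2 of Rap1gds1, 2.38, was close to that of Gbp2. Beside the chromosome 5 cluster all 4 were highest in tumor 1, unlike Gbp6 and Gbp9, among them Abcg3 with 5.31, 2.38 and 3.17 FPKM and Lrrc8b with 5.83, 2.19 and 2.20 FPKM. Those beside Igtp varied little, with 10.8, 8.92 and 10.9 FPKM for the nearest, Mrpl22. Near Irgm1, Trim41 had 5.80, 7.15 and 4.88 FPKM and Psme2b, within the cluster, had 10.5, 23.1 and 14.0 FPKM, both highest in tumor 2. Of the 4 genes flanking this cluster, however, tumors 1, 2 and 3 were the highest for 1, 1 and 2. Zfp62 had 10.8, 5.16 and 8.27 FPKM and Rack1 174, 223 and 329 FPKM. Ifi47, an IRG gene outside the lists, which lies 12.4 kb beyond that cluster, had 76.5, 74.3 and 96.0 FPKM and was highest in tumor 3. It is counted among the 20 flanking genes. Gm4841, inside the chromosome 18 cluster but outside the lists, had 2.98, 0.186 and 0.288 FPKM and so shared the highest tumor of the listed IRG genes round it. Its ratio of tumor 1 to tumor 2, 16.1, lay between that of Iigp1 and those of the other listed genes. Of the 4 genes flanking this cluster, 2 were highest in tumor 1, among them Dctn4, a dynactin subunit 134 kb beyond it, with 3.07, 1.96 and 2.01 FPKM. On the other side Isoc1 had 11.2, 6.99 and 13.8 FPKM, highest in tumor 3, and Prrc1 3.98, 4.50 and 3.72 FPKM, highest in tumor 2.

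Further GTPases of the list lie elsewhere in the genome. Mx1, a dynamin-like GTPase against viruses and a target of type I interferon, had 6.36, 86.6 and 23.8 FPKM, so that tumor 1, the highest for the chromosome 3 genes, was its lowest. Gvin1, a very large GTPase, was nearly even with 7.35, 7.001 and 6.47 FPKM, though 96.2% of its stretches occur in other genes. Irgq had 1.67, 2.39 and 2.66 FPKM. Irgc1 remained below a mean of 1 FPKM.

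Of the interferon gamma pathway, 12 of the 12 genes of the list described here were above 1 FPKM in each tumor. That is not far from the 86.8% of all genes. Tumors 1, 2 and 3 were the highest for 4, 7 and 1 of the 12, against 50.6, 33.7 and 15.7% of all genes. The ligand Ifng had 8.49, 1.10 and 1.12 FPKM, from 338, 27 and 30 reads, so tumor 1 was 7.73-fold above tumor 2. Ifngr1, the ligand-binding receptor chain, had 64.1, 182 and 72.3 FPKM, and Ifngr2, the signaling chain, had 5.54, 1.05 and 1.09 FPKM. Ligand and signaling chain were therefore highest in tumor 1, as the GBP on chromosome 3 and Iigp1 were. The other receptor chain was highest in tumor 2, and a link of these genes to the members was not tested.

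The kinases and transcription factors downstream did not single out tumor 1. Jak1 had 64.3, 117 and 128 FPKM and Jak2, the kinase bound to Ifngr2, had 17.9, 27.8 and 17.2 FPKM. Irf1, a transcription factor induced by interferon gamma that itself acts on GBP promoters, had 50.4, 76.5 and 57.0 FPKM, and Irf8 had 7.58, 12.3 and 5.38 FPKM. Each of these genes except Jak1 was highest in tumor 2, as Gbp6 and Gbp9 were. Of the inhibitors, Socs1, which blocks the JAK kinases, had 39.3, 54.0 and 14.0 FPKM, Socs3 had 99.999, 14.3 and 47.8 FPKM, and the phosphatase gene Ptpn6 had 65.0, 187 and 125 FPKM.

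Other targets of interferon gamma were mixed in the same way. The list has 16 genes, Gbp4 and Irgm2 included, of which 6 peaked in tumor 1, the other 10 in tumor 2, and 12 were lowest in tumor 3. Over all genes 50.6% peaked in tumor 1, 33.7% in tumor 2, and 37.4% were lowest in tumor 3. Cxcl9, a chemokine that attracts T cells, had 37.8, 1.77 and 0.447 FPKM, a contrast of the kind seen in Gbp2b and Iigp1. The antigen-processing genes were far more even, with 124, 166 and 145 FPKM for the immunoproteasome subunit Psmb8, 58.7, 81.3 and 70.5 FPKM for Psmb10 and 69.0, 97.8 and 58.1 FPKM for the peptide transporter Tap2. Serping1, an inhibitor of complement, had 13.2, 13.4 and 0.0828 FPKM, the last from 4 reads. The median ratio of tumor 1 to tumor 2 was 0.820 over this list, against 1.84 over the GBP members and 0.949 over the IRG members.

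Type I interferon genes pointed to tumor 2. All 10 classical targets were highest there, against 33.7% of all genes. Isg15, a ubiquitin-like modifier, had 26.0, 270 and 81.7 FPKM, Rtp4 16.1, 58.9 and 41.0 FPKM, and the antiviral enzyme Rsad2 0.653, 22.3 and 1.90 FPKM. Of 9 genes of type I signaling, Isg15 among them, 8 were highest in tumor 2. Irf7, the factor that amplifies the response, had 16.8, 132 and 36.7 FPKM and Usp18, which removes Isg15 from proteins, had 7.05, 81.5 and 30.4 FPKM. For the classical targets the median ratio of tumor 1 to tumor 2 was 0.225, so they and the GBP on chromosome 3 ranked tumors 1 and 2 in opposite order. Gbp6, Gbp9, Gbp8 and Gbp10 ranked these tumors as the classical targets did. The ratio of tumor 2 to tumor 3 was above 1 for all 7 GBP members and for 54.2% of all genes, with a median of 1.84 over the 10 members, 2.95 over the classical targets and 1.04 over all genes.

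**Figure D4:**
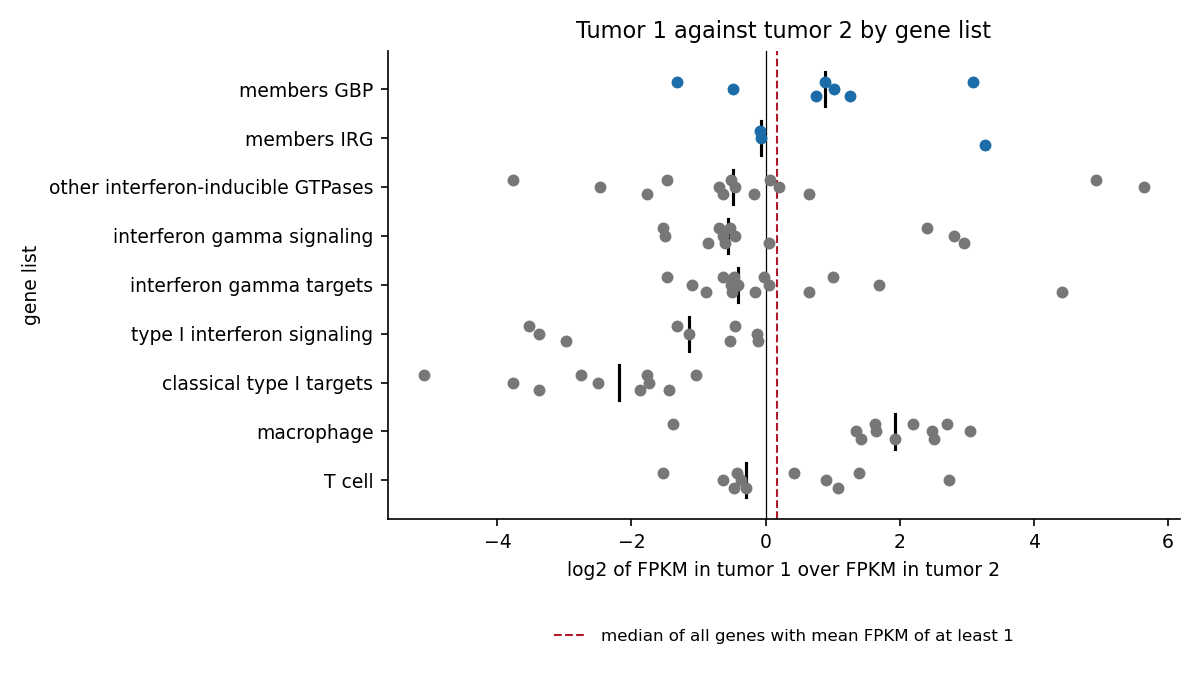
Log2 of the FPKM in tumor 1 over that in tumor 2 (horizontal axis) for the genes of 9 lists (vertical axis), without genes of 3 reads or fewer in either tumor. Points are genes, black bars the list medians and the dashed line the median of all genes with a mean of at least 1 FPKM, at 0.18. The GBP members lie on both sides of the line, from -1.31 in Gbp6 to 3.09 in Gbp2b, with classical type I targets to the left of it and 10 of 11 macrophage markers to the right. The points of Irgm1 and Igtp, at -0.08, turn positive when each tumor is rescaled to the same sum.

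Of 24 genes that place GTPases on vacuoles or act after them, 23 were analysed here, Rabgdia being the exception. The highest tumor was at least 2-fold above the lowest in 8 of the 23, close to the 34.4% of all genes. Tumor 1 was the highest for 15 of the 23, against 50.6% of all genes. Gabarap, of the ubiquitin-like autophagy proteins whose family helps to place IRG and GBP, had 40.2, 26.2 and 38.5 FPKM. Arhgdia had 204, 160 and 172 FPKM, and Gsdmd, the pore-forming gasdermin cut in pyroptosis, had 27.0, 40.0 and 24.7 FPKM. The 8 genes with the wider spread were of both kinds, the autophagy genes Gabarapl1 and Map1lc3a and the inflammasome genes Casp1, Casp4, Nlrp3, Aim2, Il18 and Il1b, and were named in full after their values were seen. Gabarapl1 had 6.18, 11.4 and 2.03 FPKM, so that Gabarap's family was not even throughout. Il18 had 5.81, 0.614 and 0.374 FPKM and Il1b had 2.36, 0.0829 and 1.24 FPKM, with 138, 3 and 49 reads for Il1b. Casp1, the protease that matures both, had 15.4, 1.76 and 3.38 FPKM.

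The tumors came from lymph nodes, and whether RNA was taken from whole tissue or from cell suspensions is not given in the sources used here. Transcripts of other cells were therefore set beside the members, and in bulk samples fewer cells of a type and less RNA per cell cannot be told apart. Macrophages are known to express GBP. Of 11 macrophage markers, 10 were highest in tumor 1, against 50.6% of all genes, and 10 were lowest in tumor 3, against 37.4%. None of these markers was at the level that stands for no read. Their summed FPKM was 443, 149 and 37.4, and their most abundant gene, Lyz2, had 215, 33.1 and 20.3 FPKM. The complement genes C1qa, C1qb and C1qc had 74.5, 24.1 and 1.44, then 64.4, 20.6 and 1.59, then 32.4, 12.7 and 0.748 FPKM. The exception was Cd68, chosen after its values were seen, highest in tumor 2 with 19.6, 51.2 and 9.27 FPKM. Itgam, also chosen after its values were seen, was lowest in tumor 2 with 2.58, 0.562 and 0.664 FPKM. The other 9 of the 11 markers ranked the tumors as the GBP on chromosome 3 did, as did 20.5% of all genes. Iigp1 shared their highest tumor, and the part of macrophages in these results was not tested.

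Dendritic cell markers were low, with sums of 11.1, 6.92 and 4.03 FPKM over 6 genes. Tumor 1 was the highest for 4 of the 6, against 50.6% of all genes. Itgax had 3.18, 1.47 and 0.762 FPKM, Xcr1 2.30, 1.47 and 0.973 FPKM, Clec9a 1.26, 2.29 and 0.731 FPKM and Siglech 2.52, 0.187 and 0.655 FPKM. Itgax, Xcr1 and Flt3, the last named after its values were seen (1.34, 0.862 and 0.639 FPKM), ranked the tumors as the GBP on chromosome 3 did, and so did the sum. Their part in the results was not tested either.

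B cell markers summed to 62.1, 50.2 and 118 FPKM and 5 of 6 were highest in tumor 3, with 23.1, 7.31 and 49.0 FPKM for Cd79a, 20.1, 3.72 and 35.5 FPKM for Cd79b and 3.98, 0.400 and 5.32 FPKM for Ms4a1. Cd22, with 5.84, 36.5 and 13.9 FPKM, was highest in tumor 2. No member was highest in tumor 3, where 5 of 6 B cell markers and 15.7% of all genes were highest. The part of B cells in the results was not tested. NK cell markers summed to 23.3, 61.1 and 50.1 FPKM, led by Eomes with 20.0, 39.5 and 45.0 FPKM, a factor that CD8 T cells also express, while Klrk1 had 2.56, 15.6 and 1.60 FPKM and Klrb1c 0.308, 5.77 and 3.38 FPKM. Ncr1, the remaining NK cell marker and not one of the genes named by rule, was low, with 0.380, 0.205 and 0.125 FPKM. These values came from 18, 6 and 4 reads. Their order was that of the chromosome 3 genes, but the counting intervals overlapped.

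Of the fibroblast markers 5 of 6 and of the pancreatic acinar genes 8 of 8 were highest in tumor 2, against 33.7% of all genes. Gbp6, Gbp9 and the type I targets were highest there too. Endothelial markers were split, 3 highest in tumor 1 and 3 in tumor 2. The endothelial markers summed to 13.9, 13.4 and 5.20 FPKM, most of it from Pecam1 with 12.2, 10.9 and 4.86 FPKM, which leukocytes also express, while Cdh5 had 0.805, 1.39 and 0.126 FPKM and Kdr 0.483, 0.374 and 0.0960 FPKM. Pecam1 and Kdr, like the endothelial sum, thus ranked the tumors as the GBP on chromosome 3 did, and their part in the results was not tested. Tek, not one of the genes named by rule, did so too, with 0.111, 0.0895 and 0.0409 FPKM. The counting intervals of Kdr in tumors 1 and 2 overlapped, 0.405 to 0.572 and 0.288 to 0.477 FPKM. The sum was only 1.04-fold higher in tumor 1 than in tumor 2, so its order depends on the scaling. Fibroblast markers summed to 10.5, 42.6 and 0.353 FPKM, led by Col1a1 with 1.63, 15.5 and 0.315 FPKM. Col3a1 had 1.86, 14.3 and 0.00490 FPKM and Col1a2 1.34, 7.40 and 0.0116 FPKM, with 1 and 3 reads in tumor 3. Dcn, the exception among the fibroblast markers, had 5.04, 3.27 and 0.00825 FPKM. It ranked the tumors as the GBP on chromosome 3 did, and its part in the results was not tested. Pancreatic acinar genes summed to 87.0, 440 and 0.657 FPKM, led by the protease precursor Ctrb1 with 33.9 and 198 FPKM in tumors 1 and 2 and no read in tumor 3. Prss2 had 14.9, 52.1 and 0.177 FPKM and Cela2a 6.72, 50.7 and 0.196 FPKM, while Cpa1 had 8.20 and 28.4 FPKM and no read in tumor 3. Whether these cells bear on the members highest in tumor 2 was not tested.

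T cell transcripts themselves did not follow the chromosome 3 genes. T cell markers summed to 1595, 1367 and 1676 FPKM. Tumors 1, 2 and 3 were the highest for 4, 5 and 2 of the 11 genes, against 50.6, 33.7 and 15.7% of all genes. Trac, the constant segment of the receptor alpha chain, had 165, 213 and 182 FPKM, and Trbc1, a constant segment of the beta chain, had 98.2, 284 and 161 FPKM. Cd4 was 6.63-fold higher in tumor 1 than in tumor 2 and thereby ranked tumor 1 highest, as Gbp2 did. Genes often used as references moved too, with 1114, 1434 and 1409 FPKM for Actb, 68.4, 150 and 94.0 FPKM for Gapdh, 408, 308 and 370 FPKM for Ppia and 421, 546 and 949 FPKM for the ribosomal gene Rpl13a. Of 8 reference genes, 3 had a highest tumor at least 2-fold above the lowest, near the 34.4% of all genes, against 8 of 10 members.

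The genes whose pattern over the 3 tumors was most like that of the summed members were sought among 6147 other genes with a mean of at least 5 FPKM. Likeness was the largest difference between a gene's and the members' share of summed FPKM in any tumor, the members' shares being 48.2, 33.2 and 18.7%. The nearest was Cdca3, a cell cycle gene, with 7.61, 5.32 and 3.07 FPKM and a largest difference of 0.608 percentage points. Next came Ddx43 with 9.36, 6.09 and 3.62 FPKM, the antisense gene Arhgap27os3 with 22.7, 15.0 and 9.17 FPKM, the mitotic cyclin Ccnb2 with 20.6, 14.2 and 8.68 FPKM, and Tyrobp, a signaling adaptor of myeloid and NK cells, with 42.0, 27.0 and 15.1 FPKM. With 3 tumors many genes come close to any pattern, and the likeness is given as a description.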

How the data were processed

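RNA-seq of 3 Dnmt3b+/- PTCL was used. The authors aligned trimmed paired-end 150 bp reads to mm10 with STAR, dropped those mapped with a quality below 50 and deposited FPKM per gene from SeqMonk, unpooled and on a linear scale. Bisulfite libraries, control libraries and protein features were not analysed here. A gene with no read carries the value of 0.9 read, which gave depths of 30726570, 18969988 and 20770928 reads for tumors 1, 2 and 3. With GENCODE M21 exon lengths 92.1, 92.1 and 92.2% of values were whole reads or 0.9 read, to within 0.01 read. FVB reads were set against a reference of another strain, and the effect was not tested.

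Of repeated symbols the row with the highest mean was used. Members and lists were chosen with earlier results of these data known. Named were all members, other GTPases with a mean of at least 1 FPKM, 8 interferon gamma pathway genes, of each list the 3 highest and the 2 with the largest ratio of highest to lowest tumor (mean at least 1), the 5 genes most like the members, and 4 T cell genes. A further gene of that pathway is not reported here. No test was made. Alternatives were other scalings, fold thresholds, background minimums, members left out and each tumor left out. Steps were tested on simulated data. Computation was in Python 3.11 (NumPy 2.4.6, pandas 2.3.3 and SciPy 1.17.1), with figures from matplotlib 3.10.9.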

Additional observations from a re-analysis of the deposited data

How the results depend on the processing

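The counts of members highest in tumors 1 and 3 stayed within 1.5 times of 6 and 0 under both scalings, while the count highest in tumor 2 fell from 4 to 2 when each tumor was rescaled to sum to 1000000, since Irgm1 and Igtp then became highest in tumor 1, and was 4 with median-of-ratios factors (1.08, 0.974 and 0.951). Members at least 2-fold apart numbered 8 with the first scaling, against 39.4% of all genes, and 7 with the second, against 32.5%. They numbered 9 at a threshold of 1.5 and 4 at a threshold of 3. With a tumor left out, which can only lower or keep the count, they numbered between 4 and 6, the lowest without tumor 1. The share of all genes at these thresholds and with a tumor left out is not given here. The ratio of highest to lowest tumor of the summed FPKM, 2.58, became 3.06 after rescaling to 1000000, 2.26 with median-of-ratios factors, 3.06 without Igtp and 2.46 without Gbp6 and Iigp1 (an alternative chosen after seeing the data). Leaving out a tumor can only lower or keep this ratio, and it then lay between 1.45 and 2.58, 1.45 without tumor 3 and 1.78 without tumor 1. The GBP share of 59.0% became 85.2% without Igtp, the most abundant IRG gene, 67.2% from reads in place of FPKM, with a value for Iigp1 that was not whole, 72.8% from reads without Iigp1 (added after seeing the data), and 60.8% without Gbp6 and Iigp1, and it lay between 56.4 and 61.3% with a tumor left out.

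Rescaling to 1000000 changed the unit and so moved the means of all 10 members by more than their SD, and median-of-ratios factors moved none that far. Leaving out 1 of 3 tumors cannot move a mean by its SD, so it was judged by ratio: without tumor 1 the means of Gbp2, Gbp2b, Gbp3 and Iigp1, and without tumor 2 that of Gbp6, moved by over 1.5 times. Members lowest in tumor 3, 9 of 10 against 37.4% of all genes, numbered 9 against 50.5% after rescaling and 8 against 29.1% with median-of-ratios factors (added after seeing the data). Over all genes, the share highest in tumor 3, 15.7%, became 8.75% after rescaling and 23.7% with median-of-ratios factors, and that highest in tumor 1, 50.6%, became 60.5 and 39%. Depth limits Gbp2b most, with 45 reads in tumor 3.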
